A study of Homo sapiens with 6 samples.

Results

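Imprinted genes are expressed mainly from the copy inherited from 1 parent. The 10 described here were taken by name. They include the growth factor gene IGF2, the CDK inhibitor gene CDKN1C and the long noncoding RNA genes H19, KCNQ1OT1 and MEG3. The others are the paternally expressed genes PEG10, PEG3 and MEST, the splicing protein gene SNRPN and the G protein gene GNAS. All 10 were found among 38147 protein-coding and lncRNA genes of the RefSeq annotation on chromosomes 1 to 22 and X (7 protein-coding, 3 lncRNA). R-loops, in which an RNA strand pairs with 1 DNA strand and displaces the other, were mapped by MapR in IMR90 cells, a wild-type human embryonic lung fibroblast line grown at 2% oxygen. MapR uses RH-MNase, a fusion of RNase H and micrococcal nuclease that cuts chromatin at RNA-DNA hybrids. Senescent cells carried ectopic Ras, quiescent cells were starved and proliferating cells carried a control vector. Each state has 1 RH-MNase peak list, so no test between states was possible; the GST-MNase background libraries are not analysed here.

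Imprinting is set by DNA methylation that differs between the parental copies at imprinting control regions, some of which are promoters of the imprinted genes or of noncoding RNAs. In such clusters a noncoding RNA transcribed from 1 copy is often accompanied by silence of its neighbours on that copy. R-loops form preferentially at transcribed, GC-rich gene starts. The peak lists do not separate the parental copies, and in a bulk library fewer cells with a hybrid and less hybrid per cell cannot be told apart.

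The senescent list held 85564 peaks over 54.1 Mb, the quiescent list 9736 over 4.12 Mb and the proliferating list 101802 over 85.4 Mb. The read depth behind them is unknown. Peaks lay over 10 of 10 fibroblast marker genes in senescent, 5 in quiescent and 10 in proliferating cells. In the same states peaks lay over 5, 3 and 6 of 6 epithelial, 4, 0 and 4 of 4 endothelial and 3, 0 and 4 of 4 immune marker genes. In senescent and proliferating cells most genes of every marker list had a peak, and a peak is not a measure of expression.

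The RefSeq promoter table gives 19 start windows for 5 of the listed genes (H19, MEG3, SNRPN, MEST and GNAS), each 250 bases before to 50 after an annotated start, numbered here from low to high coordinate. The following 7 windows on GRCh38.p14 are shown, most of them because senescent and proliferating peaks differ over them. SNRPN window 4, wholly under a peak in both states, and H19 window 1, without a peak in any list, are shown as well. MEG3 window 1 is chr14:100825858-100826157, MEST window 4 is chr7:130491808-130492107, SNRPN window 3 is chr15:24954737-24955036 and SNRPN window 4 is chr15:24956050-24956349. GNAS window 1 is chr20:58839498-58839797, GNAS window 6 is chr20:58888930-58889229 (all on the plus strand), and H19 window 1 is chr11:2001217-2001516 on the minus strand. Sequences run 5′ to 3′ along the strand of the gene. Capitals mark TGCCGC or its complement GCGGCA, the motif that the zinc finger protein ZFP57 binds when it is methylated, as at imprinting control regions.
MEG3 window 1: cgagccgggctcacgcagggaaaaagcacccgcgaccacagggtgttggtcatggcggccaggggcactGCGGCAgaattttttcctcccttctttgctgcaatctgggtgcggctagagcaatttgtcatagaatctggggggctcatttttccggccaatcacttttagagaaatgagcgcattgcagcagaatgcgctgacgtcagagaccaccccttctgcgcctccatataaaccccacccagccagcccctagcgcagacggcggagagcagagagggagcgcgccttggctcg
MEST window 4: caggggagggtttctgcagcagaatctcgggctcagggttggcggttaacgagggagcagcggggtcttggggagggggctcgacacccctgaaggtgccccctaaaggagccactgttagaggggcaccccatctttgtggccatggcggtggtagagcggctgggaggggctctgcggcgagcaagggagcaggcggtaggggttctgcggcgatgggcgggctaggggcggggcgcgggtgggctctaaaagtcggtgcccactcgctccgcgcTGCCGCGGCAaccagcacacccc
SNRPN window 3: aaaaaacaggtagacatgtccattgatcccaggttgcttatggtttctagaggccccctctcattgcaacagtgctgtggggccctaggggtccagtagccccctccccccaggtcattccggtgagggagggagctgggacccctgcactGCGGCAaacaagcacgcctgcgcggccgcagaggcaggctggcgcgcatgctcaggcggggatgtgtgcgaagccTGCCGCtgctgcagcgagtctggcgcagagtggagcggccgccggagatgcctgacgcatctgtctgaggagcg
SNRPN window 4: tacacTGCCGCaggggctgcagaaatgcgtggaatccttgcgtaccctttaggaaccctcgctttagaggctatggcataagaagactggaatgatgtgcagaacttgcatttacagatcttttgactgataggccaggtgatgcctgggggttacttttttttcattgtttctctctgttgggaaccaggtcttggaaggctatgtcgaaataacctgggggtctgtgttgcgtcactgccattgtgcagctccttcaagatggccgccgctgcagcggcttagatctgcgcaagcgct
GNAS window 1: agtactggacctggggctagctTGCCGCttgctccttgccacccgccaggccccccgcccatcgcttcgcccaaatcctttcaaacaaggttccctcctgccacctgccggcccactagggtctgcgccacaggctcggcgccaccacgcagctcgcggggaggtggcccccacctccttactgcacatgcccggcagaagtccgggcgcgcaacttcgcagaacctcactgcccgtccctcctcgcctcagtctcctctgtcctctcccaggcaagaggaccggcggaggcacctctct
GNAS window 6: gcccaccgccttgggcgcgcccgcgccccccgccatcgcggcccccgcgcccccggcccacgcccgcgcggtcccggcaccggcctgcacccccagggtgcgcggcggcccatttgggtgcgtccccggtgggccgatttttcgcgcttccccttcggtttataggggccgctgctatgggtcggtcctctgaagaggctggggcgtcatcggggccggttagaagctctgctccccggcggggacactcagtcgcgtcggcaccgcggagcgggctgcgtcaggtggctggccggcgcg
H19 window 1: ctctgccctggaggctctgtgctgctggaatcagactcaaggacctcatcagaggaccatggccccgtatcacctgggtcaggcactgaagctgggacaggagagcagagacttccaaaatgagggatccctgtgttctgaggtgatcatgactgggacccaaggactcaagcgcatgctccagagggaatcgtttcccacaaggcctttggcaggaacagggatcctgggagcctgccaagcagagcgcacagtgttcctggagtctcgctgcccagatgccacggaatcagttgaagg

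Each locus takes in the gene and 1000 bp beyond both of its ends, and the covered percent is the share of its bases under peaks. A peak lay over 9 of 10 listed loci in senescent cells, 3 in quiescent cells and 8 in proliferating cells. Across all 38147 genes the shares were 63.4%, 23.2% and 66.7%. Among the 30989 genes within the length range of the listed ones (2558 to 155087 bp) they were 65.1%, 23.7% and 68.2%. H19 had a peak in the senescent list alone and PEG3 had none in any list. IGF2, CDKN1C and PEG10 had peaks in all 3 lists.

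The covered percent was lower in senescent than in proliferating cells for 7 of the 9 loci with a peak in either state, against 81.1% of 26931 genes, and higher for 2, against 18.8%. It was at most 1/2 as large at 3 of the 9 (MEG3, GNAS and MEST), against 37.3% of genes. It was at least 2 times as large at 1, H19, where the proliferating value is 0, against 8.28%. No listed gene had a proliferating and no senescent peak, against 10.1%. These shares stand near the background. The median senescent over proliferating ratio was 0.629 for the listed loci and 0.586 for all genes. In quiescent cells the covered percent was lower than in proliferating cells at 8 of 8 loci, against 100% of 25434 genes, with no quiescent peak at 5 of the 8, against 65.1%. In senescent cells it was higher than in quiescent cells at 9 of 9, against 99.1% of 24272 genes, with no quiescent peak at 6, against 63.5%. The quiescent list is the shortest of the 3, and the part of its length in these comparisons was not tested.

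**Figure D1:**
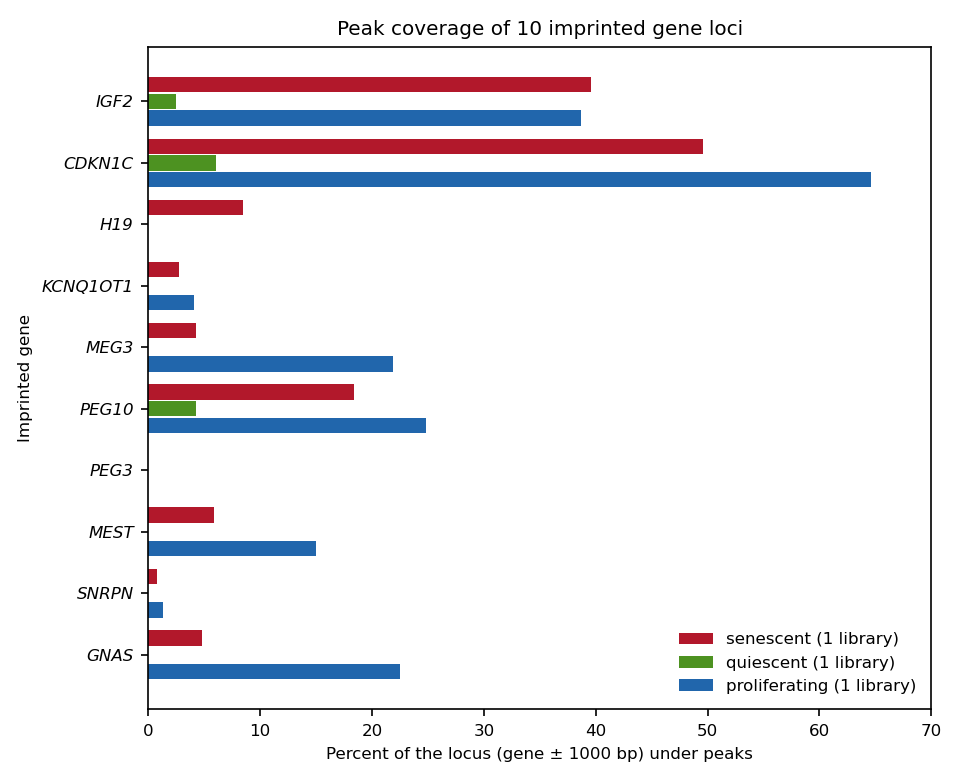
Horizontal bars give the percent of each locus (the gene and 1000 bp flanks) under peaks in the senescent, quiescent and proliferating libraries, 1 library each, so there are no error bars. CDKN1C reaches 49.6% in senescent and 64.6% in proliferating cells, IGF2 is at 39.6% and 38.7%, and PEG3 has no bar.

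The growth regulators of chromosome 11, IGF2 and CDKN1C, had the highest coverage of the 10 in senescent and proliferating cells; in quiescent cells PEG10 stood between them. IGF2 (chromosome 11, 2129117 to 2149566), a fetal growth factor gene expressed from the paternal copy, had 39.6% of its locus covered in senescent cells (7 peaks), 2.47% in quiescent cells (1 peak) and 38.7% in proliferating cells (10 peaks). Coverage was therefore close in senescent and proliferating cells, although it was spread over fewer peaks in senescent cells. Between 6.90 and 9.11 kb from the low-coordinate end lay a senescent peak of 2211 bp with a score of 46, which only 1.31% of the senescent list reached. The proliferating peak over the same stretch was 2685 bp wide and also scored 46, a score reached by 12.9% of that list; ranks in lists of unequal length show no change between states. The only quiescent peak over IGF2, 554 bp wide, lay inside both.

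The rest of IGF2 differed in detail. From 11.9 to 14.98 kb a senescent peak of 3106 bp faced proliferating peaks of 2245 and 195 bp. Proliferating peaks of 757, 766 and 305 bp had no senescent partner, and neither did a senescent peak of 336 bp. Without the flanks the sign of the difference turned: the senescent minus proliferating difference in the covered percent of the gene itself was -1.90 points, against 0.846 points with flanks. When the proliferating list was shortened to its 40460 highest-scoring peaks, which cover the same length as the senescent list, the difference was 24.7 points.

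CDKN1C (chromosome 11, 2883218 to 2885775), which encodes the CDK inhibitor p57 and is expressed from the maternal copy, had 49.6% covered in senescent cells, 6.08% in quiescent cells and 64.6% in proliferating cells. The senescent library had 4 peaks there and the proliferating library 2. A proliferating peak of 2888 bp ran across the high-coordinate end and beyond it, where senescent cells had separate peaks of 533 and 1683 bp. The quiescent peak, 277 bp wide and of score 15, lay beyond that end, inside the 2888 bp peak and across the edge of the 1683 bp peak. The difference between senescent and proliferating cells rested largely on the flanks: within the gene itself 73.9% was covered in senescent, 0% in quiescent and 76.0% in proliferating cells.

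The 3 noncoding RNA genes differed from each other. H19 (chromosome 11, 1995176 to 2001266), a maternally expressed RNA next to IGF2, had 1 senescent peak of 688 bp over 8.50% of its locus and no peak in quiescent or proliferating cells. A peak in senescent and none in proliferating cells was found for 5.56% of genes with a peak in either. The H19 peak scored 14, a score that 82.8% of the senescent list reached, lay inside the gene 2.88 to 3.57 kb from the low-coordinate end, and is also within 1000 bp of MRPL23; no H19 peak was left when lower-scoring peaks were dropped at the list's median score of 19. The H19 start window had no peak in any state, and the nearest proliferating peak was 11.9 kb from the gene.

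KCNQ1OT1 (chromosome 11, 2608328 to 2699994) is a paternally expressed RNA antisense to the potassium channel gene KCNQ1. Its locus was covered to 2.72% in senescent cells by 7 peaks and to 4.09% in proliferating cells by 5 peaks, with none in quiescent cells. At equal covered length the values were 2.72% in senescent and 2.86% in proliferating cells. Most of that lay at the high-coordinate end, where this antisense transcript begins. There a single proliferating peak of 3199 bp (89.99 to 93.19 kb from the low end) faced 4 senescent peaks of 801, 222, 578 and 666 bp. Elsewhere in the gene the peaks were 195 to 434 bp wide in both lists, and 1 senescent peak of 234 bp overlapped 1 proliferating peak of 329 bp.

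MEG3 (chromosome 14, 100826108 to 100861026), a maternally expressed RNA, had 4.26% of its locus covered in senescent cells (5 peaks), none in quiescent cells and 21.9% in proliferating cells (12 peaks), a senescent over proliferating ratio of 0.195. At equal covered length of the lists the values were 4.26% in senescent and 10.3% in proliferating cells. A proliferating peak of 2983 bp and score 32 spanned all 3 MEG3 start windows, running between -0.358 and 2.62 kb from the low end. No senescent peak overlapped it; the nearest senescent peak, 258 bp wide, ended at -0.473 kb. The remaining 4 senescent peaks inside MEG3 each overlapped a proliferating one, and the highest of them, 357 bp wide with a score of 26, lay 32.6 kb into the gene.

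**Figure D2:**
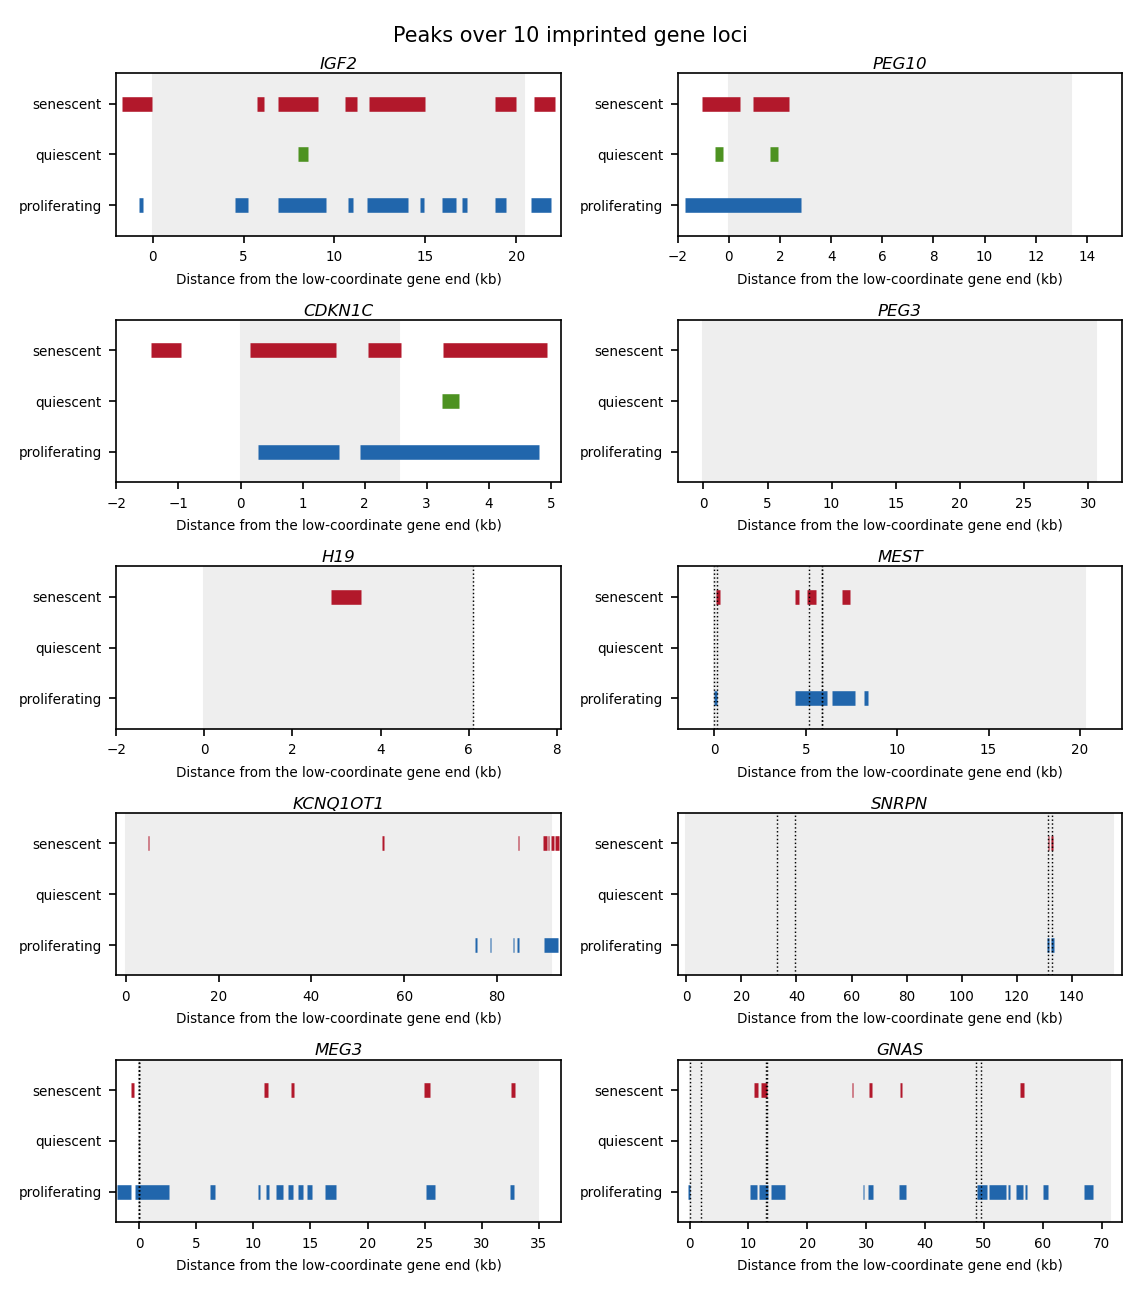
Each panel shows 1 gene (grey span) on an axis of distance in kb from its low-coordinate end; bars are peaks in the senescent, quiescent and proliferating lists, and dotted lines are RefSeq starts where the table gives them. Panels have different scales. Over the MEG3 starts and at 48.8 to 53.7 kb in GNAS the peaks are proliferating ones alone.

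PEG10 (chromosome 7, 94656325 to 94669695), a paternally expressed gene, derives from a retrotransposon and lies head to head with SGCE. It had 18.4% of its locus covered in senescent cells, 4.29% in quiescent cells and 24.8% in proliferating cells. All peaks lay at or near its low-coordinate end, the innermost quiescent one at 1.59 to 1.92 kb, and part of them were within 1000 bp of SGCE. A single proliferating peak of 4524 bp, the widest over any of the 10 loci, contained senescent peaks of 1459 and 1396 bp and quiescent peaks of 330 and 329 bp. The quiescent peak nearer SGCE scored 27, a score reached by 22.7% of that list. It lay inside SGCE and beyond the end of PEG10, while the quiescent peak inside PEG10 scored 16.

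MEST (chromosome 7, 130486175 to 130506465) encodes a hydrolase-like protein and was covered to 5.89% in senescent and 15.0% in proliferating cells, with 4 peaks each and none in quiescent cells. Proliferating peaks of 1713 and 1245 bp (scores 32 and 51) faced senescent peaks of 210 and 455 bp, and of 410 bp. The score of 51 was reached by 9.47% of the proliferating list, while the highest senescent score over MEST, 20, was reached by 45.7% of the senescent list. The paired starts at 5.88 and 5.91 kb (windows 4 and 5) lay under the proliferating peak of 1713 bp and under no senescent peak.

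SNRPN (chromosome 15, 24823637 to 24978723) encodes a core protein of spliceosomal particles. Its downstream start region, which SNURF and SNHG14 share, contains an imprinting centre of the Prader-Willi region. Only that region carried peaks: 2 senescent peaks of 224 and 966 bp and 2 proliferating peaks of 879 and 1125 bp, all between 130.8 and 133.4 kb from the low end of a gene of 155087 bp. Window 4 lay wholly under a peak in senescent and in proliferating cells. Window 3 lay wholly under the proliferating peak, while the senescent peak began past the window's end. The upstream windows 1 and 2, at 32.9 and 39.3 kb, had no peak, and the nearest quiescent peak was 871828 bp from the gene.

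PEG3 (chromosome 19, 56810082 to 56840726), which encodes a zinc finger protein, had no peak in any library. The nearest senescent peak was 214.5 kb away, the nearest quiescent one 270.8 kb and the nearest proliferating one 30.8 kb. Distances at least that long were found for 6.12% of all protein-coding and lncRNA genes in senescent, 24.1% in quiescent and 17.7% in proliferating cells.

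GNAS (chromosome 20, 58839748 to 58911192) encodes the stimulatory G protein alpha subunit and uses alternative starts that differ in parental expression. It had 4.84% of its locus covered in senescent cells (6 peaks), none in quiescent cells and 22.5% in proliferating cells (14 peaks), a senescent over proliferating ratio of 0.215. At equal covered length they were 4.84% in senescent and 15.7% in proliferating cells. The region of the starts at 12.97 and 13.2 kb (windows 3 and 4) had a peak in both states, 865 bp wide in senescent and 1495 bp in proliferating cells. The starts at the low end (window 1) and at 49.4 kb (window 6) lay under proliferating peaks of 394 and 1769 bp and under no senescent peak. Next to window 6 followed a proliferating peak of 2790 bp, again with no senescent partner. The proliferating peak of highest rank, score 55 at 10.2 to 11.4 kb, was reached by 7.28% of its list; a senescent peak of 750 bp and score 19 overlapped it.

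Peaks over the 10 loci numbered 38 in senescent, 4 in quiescent and 50 in proliferating cells, with median widths of 511, 329.5 and 784.5 bp against 468, 352 and 550 bp in the whole lists. Of the senescent peaks, 32 of 38 overlapped a proliferating one (84.2%, exact 95% binomial interval 68.7 to 94.0), against 65.7% of the whole senescent list. Of the proliferating peaks, 27 of 50 overlapped a senescent one (54.0%, 39.3 to 68.2), against 49.9%. All 4 quiescent peaks overlapped a peak of both other lists, against 94.1% and 99.4% of the quiescent list for senescent and proliferating peaks. The intervals cover counting error only and treat peaks of 1 gene as separate. When an overlap had to take up 50% or more of each peak, 10 of the 38 and 10 of the 50 had a partner. The shares of the whole lists under that rule were not computed, so these counts cannot be set against the percentages above.

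Of the 50 proliferating peaks, 8 were wider than 2000 bp, against 8.05% of the whole proliferating list. Of these 8, 3 overlapped no senescent peak, 1 at MEG3 and 2 in GNAS. In the whole proliferating list 2.7% of 8200 peaks of that width overlapped none. A further 3, at KCNQ1OT1, CDKN1C and PEG10, overlapped several senescent peaks each, against 46.9% in the whole list. The other 2, both in IGF2, overlapped 1, against 50.4%. This width class was looked at after the peaks had been seen, and the 3 unpartnered peaks lie in 2 genes.

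The highest peak of the gene reached the score that bounds the top 25% of its own list for 5 of 9 genes in senescent cells, 1 of 3 in quiescent cells and 6 of 8 in proliferating cells. Among all genes with a peak the shares were 59.3%, 31.1% and 69%. IGF2, PEG10 and GNAS reached it in both senescent and proliferating cells, and CDKN1C, SNRPN and MEST in proliferating cells alone. KCNQ1OT1 and MEG3 reached it in senescent cells alone. In quiescent cells only PEG10 reached it, through the peak that lay beyond its end and inside SGCE. Through tied scores the cut-off admitted 28.3% of the senescent, 25.7% of the quiescent and 25.1% of the proliferating list. KCNQ1OT1 reached it only at the tied senescent score. The highest MEG3 peak of proliferating cells, with 27.9% of its list at or above its score, fell short of it. A peak within 1000 bp of either annotated gene end was present at 6, 2 and 7 of the 10 genes in senescent, quiescent and proliferating cells, against 52.5%, 18.7% and 57.8% of genes.

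**Figure D3:**
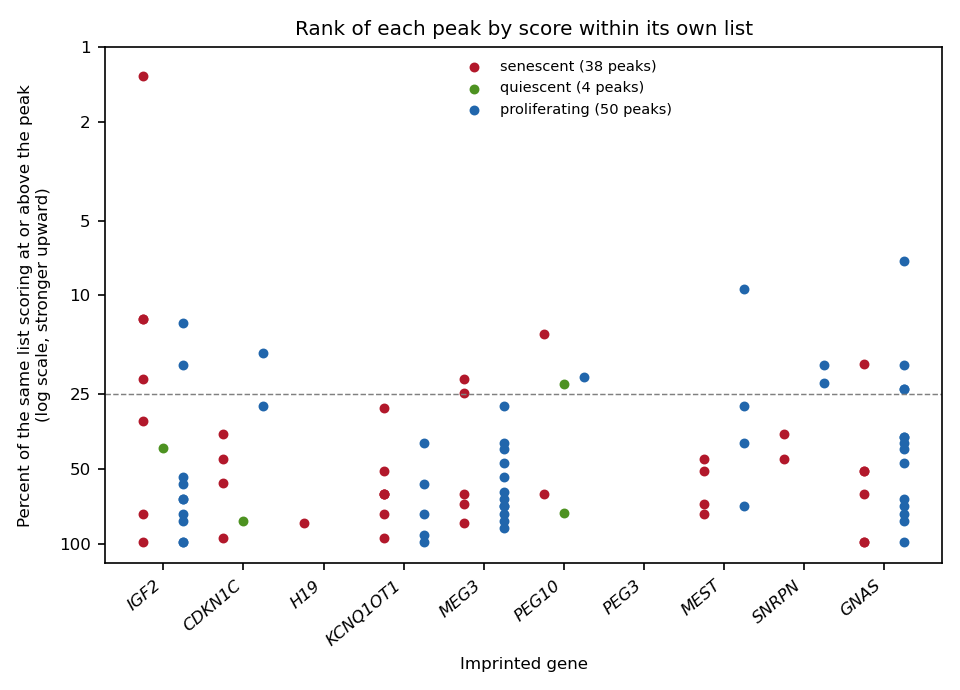
Each point is 1 peak over the gene named below it, placed by the percent of peaks in its own list that score at or above it (log axis, stronger peaks higher; the dashed line is at 25%). The IGF2 peak of senescent cells, at 1.31%, stands highest, and H19 has a single senescent point at 82.8%.

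Of the 19 start windows, 5 were overlapped by a senescent peak, 0 by a quiescent and 14 by a proliferating one, against 41.3%, 12.4% and 55.2% of 34961 RefSeq windows. The 9 windows with a proliferating and no senescent peak were the 3 of MEG3, windows 1 and 6 of GNAS, windows 1, 4 and 5 of MEST and window 3 of SNRPN; among all windows with a peak in either state 27.7% were of this kind. Neighbouring windows overlap and share peaks, so the 19 are not separate observations. No window had a senescent peak alone, against 3.36%.

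CpG observed over expected, the number of CpG pairs against that expected from the C and G content, had a median of 0.665 in the 19 windows and 0.580 in all windows. It lay from 0.571 to 0.985 in the 14 windows with a proliferating peak, with a median of 0.670 against 0.811 in all 19284 windows with such a peak. In the 5 without any peak it was 0.242 (H19), 0.305 and 0.101 (SNRPN windows 1 and 2), and 0.980 and 0.487 (GNAS windows 2 and 5). GNAS window 2 was thus as CpG-rich as window 6, at 0.985, which had a proliferating peak. GC skew, the excess of G over C on the strand of the gene as a share of both, was highest in SNRPN window 2, at 0.460 (above 99.5% of all windows), where no peak lay; it was 0.233 in MEST window 4.

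The motif TGCCGC, searched on both strands, was present in 10 of the 19 windows, against 16.8% of all windows and 24.4% of those with a proliferating peak. The windows with it were the 3 of MEG3, SNRPN windows 3 and 4, GNAS window 1 and MEST windows 1, 2, 4 and 5. The 3 of MEG3 share 1 match, MEST windows 1 and 2 share 1, and MEST windows 4 and 5 share 2. All 10 had a proliferating peak, and 2 of them, MEST window 2 and SNRPN window 4, a senescent one. In MEST window 4 the 2 matches overlap each other past the start, as the capitals in the printed sequence show. A match is a description of the letters, not a bound site. The hairpins of MIR675 in H19, MIR770 in MEG3 and MIR335 in MEST lay under no peak in any list. MIR483 at IGF2 was not among the hairpins set against the peaks. A proliferating IGF2 peak of 757 bp and a senescent one of 336 bp lay within 1000 bp of MIR483.

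**Figure D4:**
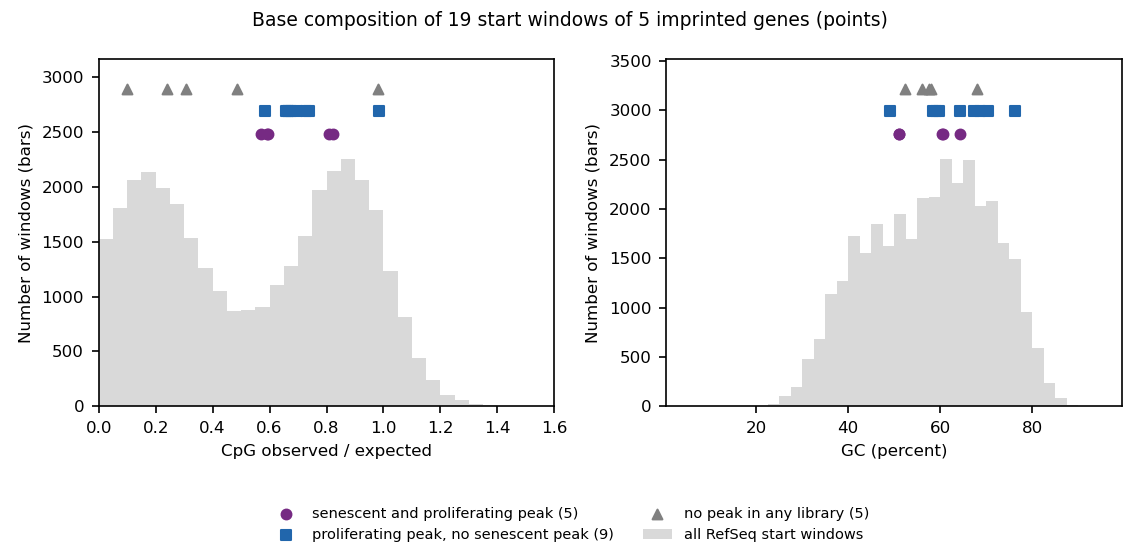
Grey bars count all RefSeq start windows of 300 bases by CpG observed over expected (left) and GC percent (right); points are the 19 windows of 5 imprinted genes, by whether a senescent and a proliferating peak (5), a proliferating peak alone (9) or no peak (5) overlapped them, and their height has no scale. On the left, the windows with a peak lie at 0.571 or above.

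A wider set of 63 imprinted genes, also chosen by name, was counted in the same way. Peaks lay at 45 of them in senescent, 14 in quiescent and 55 in proliferating cells, against 63.4%, 23.2% and 66.7% of all genes. Of the 55 with a peak in senescent or proliferating cells, 46 had a lower and 9 a higher covered percent in senescent cells. The shares over all genes were the 81.1% and 18.8% given above. At equal covered length the counts were 27 and 20, and with equal numbers of peaks 12 and 10. Shortened lists can shift such counts for any gene set, and shares over all genes were not computed at these settings. In the full lists the covered percent was at most 1/2 as large in senescent cells at 28 of the 55, against 37.3%. The median ratio was 0.492 for these genes and 0.586 for all genes, whereas the ratio of summed covered bases was 0.700 and 0.618, so the median and the sum lie on opposite sides of the background. No gene had a senescent and no proliferating peak, against 5.56%, and 10 had a proliferating and no senescent peak, against 10.1%.

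Of the genes with peaks in all 3 lists, PHLDA2, a placental growth regulator on chromosome 11, had 57.6% covered in senescent, 6.23% in quiescent and 100% in proliferating cells. SLC67A1-AS, which shares a peak with CDKN1C in each list, had 42.5%, 5.05% and 61.2%. MEG9, a noncoding RNA of the MEG3 cluster, had 33.1%, 7.28% and 41.5%, and BLCAP, which contains the imprinted gene NNAT, 13.3%, 6.03% and 44.4%. With no senescent peak, HYMAI had 45.5% covered in proliferating cells, MCTS2 33.0%, NNAT 24.99% and KCNQ1DN 22.9%.

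Genes that share peaks with the listed ones followed them only in part. IGF2-AS, antisense within IGF2, had 48.4% covered in senescent and 43.4% in proliferating cells, and KCNQ1, which holds KCNQ1OT1, had 11.3% and 9.99%. MESTIT1, antisense to MEST, had 13.0% and 22.6%, SGCE 2.82% and 4.77%, GNAS-AS1 3.37% and 7.27%, SNURF 4.62% and 7.79%, and SNHG14, a host gene of small nucleolar RNAs that runs from the SNRPN region, 0.591% and 0.368%. KCNQ1 and SNHG14 had more senescent coverage over the whole gene, while KCNQ1OT1 and SNRPN, within the same regions, had less, which was not tested.

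**Figure D5:**
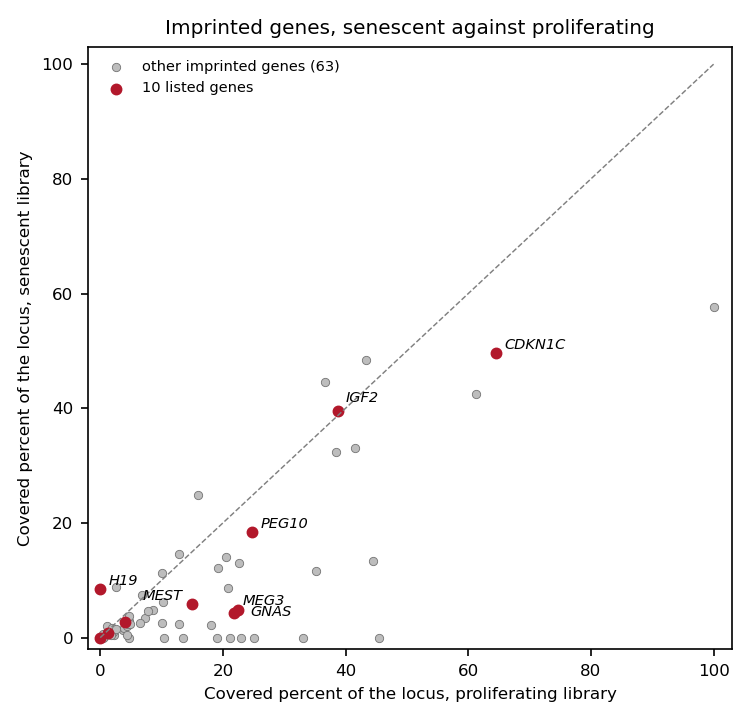
Each point is an imprinted gene, with the covered percent of its locus in the senescent library (vertical) against the proliferating library (horizontal), 1 library each; the dashed line marks equal coverage. Of the 10 listed genes (red), H19 and IGF2 lie above the line, PEG3 is at 0 in both, and 7 lie below it.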

How the data were processed

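MapR was done on IMR90 cells with RH-MNase and GST-MNase, 1 library per enzyme and state (6 samples); the 3 RH-MNase peak lists were used. Each deposited list gives peak positions and the authors' score; scores are whole, start at 10 and carry no stated scale, and each was used only to rank and select peaks within a list. MACS2 2.2.7.1, Bowtie2 2.4.5, FastQC 0.11.9 and GRCh38 are named in the submitters' processing notes. The sources used here do not give settings, filters or any control. No peaks overlapped within a list.

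Genes and start windows came from RefSeq tables of GRCh38.p14. Peaks were set against loci, gene ends and windows with Python 3.11.15, pandas 2.3.3 and numpy 2.4.6; an overlap is at least 1 bp, and the interval functions were checked on simulated peaks. Intervals are exact (scipy 1.17.1). The 10 genes and the other lists were chosen with earlier results of these data known. The text names the 10 genes, those of the wider list that share a peak with them, and up to 4 per pattern by covered percent; SLC22A18-AS is listed under its current symbol SLC67A1-AS. With 1 library per state no test was made. Read depth is unknown, so list sizes could not be set against it. Alternatives covered flanks, windows, score, peak number, covered length, width and overlap rules; the length-range background and the wide peaks were added after seeing the data.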

Additional observations from a re-analysis of the deposited data

How the results depend on the processing

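No paired analysis was possible because each state has 1 library. The senescent against proliferating direction at KCNQ1OT1, CDKN1C, MEG3, SNRPN, PEG10, MEST and GNAS was not reversed by any flank, score, length or overlap setting. The width setting removed no peak from these loci and could not change it. With equal numbers of peaks KCNQ1OT1, CDKN1C, MEG3, SNRPN and PEG10 had no senescent or proliferating peak, so no direction was left. The difference at CDKN1C, -14.9 points, was -2.07 without flanks, -27.7 with peaks below the median score dropped and -22.6 where most of a peak had to lie in the locus. At PEG10 it was -6.46 points and, with those low-scoring peaks dropped, -15.7. At equal covered length it was -6.00 points at MEG3 and -10.8 at GNAS, against -17.6 at both, and -0.142 at KCNQ1OT1, against -1.37; there it was -2.50 without the low-scoring peaks. H19 had no peak among those scoring at or above the senescent median. IGF2 reversed: its senescent minus proliferating difference in covered percent was -1.90 points with a flank of 0 bp and -1.33 points where at least 50% of a peak had to lie in the locus. In both settings, and with lower-scoring peaks left out at the median, 1 listed gene had higher senescent coverage. At IGF2 the difference was 20.3 points with peaks below the median score dropped, 25.9 points with equal numbers of peaks and 24.7 points at equal covered length. These settings change which bases or peaks count. Shares over all genes or whole peak lists were not computed under them, so the counts below have no background beside them.

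With the 9736 highest-scoring peaks of each list the loci were nearly empty: 1 listed gene had a senescent and 2 a proliferating peak. Senescent coverage was then lower than proliferating at 2 and higher at 1; quiescent coverage was lower than proliferating at 2 and higher at 3, and senescent coverage was lower than quiescent at 2 and higher at 1. Gene-end peaks were at 1 gene in senescent and 0 in proliferating cells. Shared peaks numbered 1 between senescent and quiescent cells in either direction and 0 with proliferating cells. In the wider list 19 genes had a senescent and 13 a proliferating peak; senescent coverage was lower than proliferating at 12 and higher at 10, quiescent lower than proliferating at 13 and higher at 6, and senescent lower than quiescent at 4 and higher at 17.

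At equal covered length (40460 proliferating peaks) 34 genes of the wider list had a proliferating peak, senescent coverage was lower than proliferating at 27 and higher at 20, and quiescent lower at 34; in the listed loci 21 senescent peaks had a proliferating and 15 proliferating peaks a senescent partner. With the median as the lowest score these were 13 and 12, with 1 shared between senescent and quiescent cells and 2 quiescent peaks shared with proliferating cells; 1 listed gene had a quiescent gene-end peak, as with a narrower window at gene ends, and 1 gene of the wider list had lower senescent than quiescent coverage. Where 50% of both peaks had to overlap, 10 senescent and 10 proliferating peaks were shared and 0 involved a quiescent peak. With a flank of 0 bp 2 quiescent peaks remained, both shared, and 0 quiescent genes had an upper-quarter peak. Where at least 50% of the peak had to lie in the locus, 1 gene of the wider list had higher quiescent than proliferating coverage. In the top 10% of scores were 1 senescent, 0 quiescent and 2 proliferating genes. The median GC content of the 19 windows was 59.7% and, in the 50 bases from the start on, 70%. In all, 213 of 290 alternative values stayed close to the main ones, 75 moved and 2 reversed. Some of them could not move. Only 1 peak, in the proliferating list, was wider than 20000 bp, and joining loci that share a peak left all 10 separate. PEG3 had no peak within any flank used. The number that stayed close is therefore no measure of stability.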

Other observations

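The imprinted clusters differed in how much of the genes around the listed ones was under peaks. In region 11p15 of chromosome 11 all 11 other imprinted genes of the wider list had a proliferating and 9 a senescent peak. Their median covered percents were 12.1% in senescent and 22.9% in proliferating cells. WT1, elsewhere on chromosome 11, is not among them. On chromosome 15 the counts were 5 senescent and 6 proliferating of 8, with medians of 0.561% and 4.78%. Over all genes, 63.4% had a senescent and 66.7% a proliferating peak, with medians of 1.79% and 3.56%. Around PEG3 on chromosome 19, 0 of 5 genes had a senescent and 1 a proliferating peak: PEG3-AS1, MIMT1, USP29 and ZIM3 had none in any list, and ZIM2 had a proliferating peak over 0.437% of its locus.

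One gene of the wider list, DLK1, had at least 2 times the senescent coverage: 8.90% in senescent and 2.54% in proliferating cells, a ratio of 3.50, against 8.28% of genes past that fold. DLK1, which encodes a Notch-like transmembrane protein, is the paternally expressed neighbour of MEG3. These genes were named after their values were seen, and no difference was tested.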
